A study of Mus musculus with 8 samples.

Results

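The genes described here encode the constitutive proteasome of a mouse B cell line together with its caps, inhibitor and assembly chaperones. Members were the rows of the gene table whose symbol is Psma to Psmg followed by a number, without the immunoproteasome subunits Psmb8, Psmb9 and Psmb10. This rule gave 45 of 24054 named rows, and it used no measured value. PolyA-selected RNA was sequenced from 8 libraries, 2 in each of 4 groups. The groups were WEHI-miR-148a cells with anti-IgM, WEHI-miR-148a cells without stimulation, WEHI-control cells with anti-IgM and WEHI-control cells without stimulation. Anti-IgM, an antibody that crosslinks the B cell receptor, was given at 2 ug/ml and the cells were sampled after 14 h. No time is given for the unstimulated cells, so whether the groups were matched for time in culture is not known. Both lines are immature B lymphocytes by their labels, which do not say how the microRNA was delivered, whether a line is 1 clone or whether replicates were separate cultures, so p-values reflect library spread that may be technical. PolyA-selected RNA does not measure the mature microRNA, so the label of its line was not checked.

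The proteasome degrades proteins that carry ubiquitin. Its 20S core is a barrel of alpha and beta rings with the proteolytic sites inside, and the 19S cap recognises, unfolds and feeds in the substrate. Dedicated chaperones assemble both, and alternative caps such as PA28 and PA200 can take the place of the 19S particle. Interferon gamma can induce the subunits of a variant core, the immunoproteasome, and the PA28 alpha and beta subunits.

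Library totals were 5810227 to 18660373 counts, and the members took 0.670% to 0.870% of them. B lineage markers summed to 2928 to 3214 CPM (the count scaled by library total and TMM factor) in anti-IgM and 2472 to 2599 CPM in unstimulated miR-148a libraries, and to 2385 to 2553 CPM in anti-IgM and 2412 to 2542 CPM in unstimulated control libraries. The T cell, fibroblast and erythroid lists each summed to at most 2.12 CPM. The monocyte and macrophage list summed to 9.54 to 11.3 CPM in anti-IgM and 0.922 to 1.69 CPM in unstimulated miR-148a libraries, and to 4.35 to 7.65 CPM in anti-IgM and 1.50 to 1.99 CPM in unstimulated control libraries, and its part in the results was not tested. Itgam rose in that list (log2 fold change 4.17 ± 0.39 and 3.50 ± 0.40, adjusted p = 0.000406 and 0.00163), while Lyz2, S100a8 and S100a9 had 0 counts in all 8 libraries. The replicate number follows the prefix of the library names in the labels, taken here as the sequencing run, and each run holds 1 library of every group. A difference between runs may also hold differences of culture or library preparation. Of 43 members tested, 16 were lower and 0 higher in the run of replicate 2 than in that of replicate 1, in the fit with the run as a block, where 9.08% and 9.72% of all genes tested were lower and higher. The alpha ring held 5 of the 16, with a median log2 difference of -0.28 over its 7 tested genes.

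Sequences are shown for the microRNA that names a line, because its seed pairs with 3′ UTR sites, and for the start-site regions of the 4 members that were lower with anti-IgM in both lines. They are set beside the same region of the catalytic subunit Psmb5, which was not called in either response. These are from RefSeq or the reference genome in build GRCm38, and the 3′ UTR sites below are from GENCODE transcripts of that build. The seed of miR-148a-3p, bases 2 to 8, is in capitals.
miR-148a-3p: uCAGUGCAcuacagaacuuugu

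Seed sites of the 7mer-m8 (TGCACTG) or 7mer-A1 (GCACTGA) kind stood in the longest annotated 3′ UTR of 2 of 43 members, 4.65%, against 22.4% of all tested genes with a 3′ UTR. The members were Psmd8, a lid subunit on chromosome 7, and Psmf1, the inhibitor PI31 on chromosome 2. The Psmf1 site lies in the principal annotated transcript. The Psmd8 site lies in another annotated transcript, and whether the principal one holds it was not checked. The sites are printed below in capitals with their flanks.
Psmd8: taacagtgccagTGCACTGtgtgatagtcg
Psmf1: cccatgggtcagGCACTGAccaccttgaag
These are matches of letters and not measured target sites. The shares were not matched for 3′ UTR length, which bears on the number of matches. The log2 fold change of miR-148a over control cells for Psmd8 was 0.09 ± 0.10 with anti-IgM and 0.09 ± 0.10 without (± standard error), and for Psmf1 it was 0.04 ± 0.14 and -0.09 ± 0.13. Neither passed the test in either condition.

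The start-site windows run from 250 bases before to 50 bases after the annotated start, and 37 of the 45 members had one. Capitals mark matches of motifs on either strand, and matches of different motifs may overlap. The ETS motif was searched as CCGGAAG. The CCAAT box, a site of the factor NF-Y, was searched by the letters of its name. The E box, a site of Myc and related factors, was searched as CACGTG. The core of the antioxidant response element, the kind of site bound by Nfe2l1, was searched as TGACNNNGC. The GC box, bound by Sp1, was searched as GGGCGG.
Psme3, chr11:101315963-101316262, plus strand: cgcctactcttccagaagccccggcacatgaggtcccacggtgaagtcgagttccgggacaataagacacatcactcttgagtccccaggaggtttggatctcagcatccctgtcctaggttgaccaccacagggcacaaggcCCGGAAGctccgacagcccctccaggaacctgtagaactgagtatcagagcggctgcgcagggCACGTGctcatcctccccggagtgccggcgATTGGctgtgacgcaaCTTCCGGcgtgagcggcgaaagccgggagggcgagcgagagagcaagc
Psme2, chr14:55591052-55591351, minus strand: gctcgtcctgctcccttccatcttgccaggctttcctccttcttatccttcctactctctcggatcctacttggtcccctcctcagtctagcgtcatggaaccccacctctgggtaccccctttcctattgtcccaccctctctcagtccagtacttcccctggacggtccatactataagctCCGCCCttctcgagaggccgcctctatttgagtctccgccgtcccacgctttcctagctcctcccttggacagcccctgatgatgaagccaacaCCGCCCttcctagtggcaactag
Psmg1, chr16:95990911-95991210, minus strand: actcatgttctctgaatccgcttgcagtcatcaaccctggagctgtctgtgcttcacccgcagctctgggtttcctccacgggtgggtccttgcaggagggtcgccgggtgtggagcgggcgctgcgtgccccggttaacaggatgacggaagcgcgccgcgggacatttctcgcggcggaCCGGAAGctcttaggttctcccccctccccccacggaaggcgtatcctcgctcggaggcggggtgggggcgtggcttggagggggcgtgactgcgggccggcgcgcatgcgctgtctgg
Psmg3, chr5:139826845-139827144, minus strand: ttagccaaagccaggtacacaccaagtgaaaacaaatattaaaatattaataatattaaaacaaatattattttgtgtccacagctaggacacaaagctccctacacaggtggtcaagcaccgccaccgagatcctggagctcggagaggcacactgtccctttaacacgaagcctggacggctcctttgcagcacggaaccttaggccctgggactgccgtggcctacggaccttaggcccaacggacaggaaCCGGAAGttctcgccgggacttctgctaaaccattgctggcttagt
Psmb5, chr14:54617946-54618245, minus strand: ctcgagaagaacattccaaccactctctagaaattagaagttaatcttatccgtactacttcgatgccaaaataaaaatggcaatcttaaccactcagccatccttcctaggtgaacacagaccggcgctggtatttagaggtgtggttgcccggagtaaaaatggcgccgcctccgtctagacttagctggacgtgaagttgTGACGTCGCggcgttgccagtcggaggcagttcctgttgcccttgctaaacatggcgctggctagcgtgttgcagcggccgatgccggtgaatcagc
The Psme3 window held ETS matches at positions -107 and 3, an E box at -44 and a CCAAT box at -14, counted from the start site. Psmg1 and Psmg3 held an ETS match each, at -69 and 5, Psme2 held GC boxes at -67 and 28, and Psmb5 held an antioxidant response element core at -47. A second annotated window of Psme2, chr14:55590972-55591271, is not printed. It held GC boxes at -147 and -53 from its own start site. No motif was common to the 4 members lower in both lines. ETS matches stood in 37.8% of members with a window, against 9.93% of all genes with one and 21.7% of tested genes with one. The antioxidant response element core stood in 16.2% of members, against 14.0% of all and 17.0% of tested genes. CCAAT boxes stood in 35.1%, against 41.1% and 43.0%, E boxes in 8.11%, against 8.09% and 12.1%, and GC boxes in 59.5%, against 38.2% and 69.8%.

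Levels between genes were compared per kb of the principal annotated transcript, averaged over the 8 libraries. The beta ring ran from 124 CPM per kb in Psmb1 to 175 CPM per kb in Psmb6, a ratio of 1.41. With the length of the union of all annotated exons Psmb1 had 63.5 CPM per kb and that ratio was 2.75. The alpha ring ran from 66.0 CPM per kb in Psma2 to 246 CPM per kb in Psma6, and the 19S ATPases from 90.2 CPM per kb in Psmc2 to 156 CPM per kb in Psmc1. The 19S non-ATPase subunits ran from 54.5 CPM per kb in Psmd13 to 179 CPM per kb in Psmd3. Chaperones were lower, with 33.1 (Psmg3) to 50.0 (Psmg1) CPM per kb for the 20S set and 11.0 (Psmd9) to 38.8 (Psmd10) CPM per kb for the 19S set. The PA28 beta subunit Psme2 was the highest member at 421 CPM per kb, and the inhibitor Psmf1 had 12.3 CPM per kb. The annotation behind the deposited counts is not given in the sources used here, so these lengths are those of GENCODE in the same build. Psma8, the testis alpha subunit, had 0 counts in all 8 libraries, where 3 counts correspond to 0.166 to 0.502 CPM. Psmb11, the thymus catalytic subunit, had at most 1 count in any library.

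**Figure D1:**
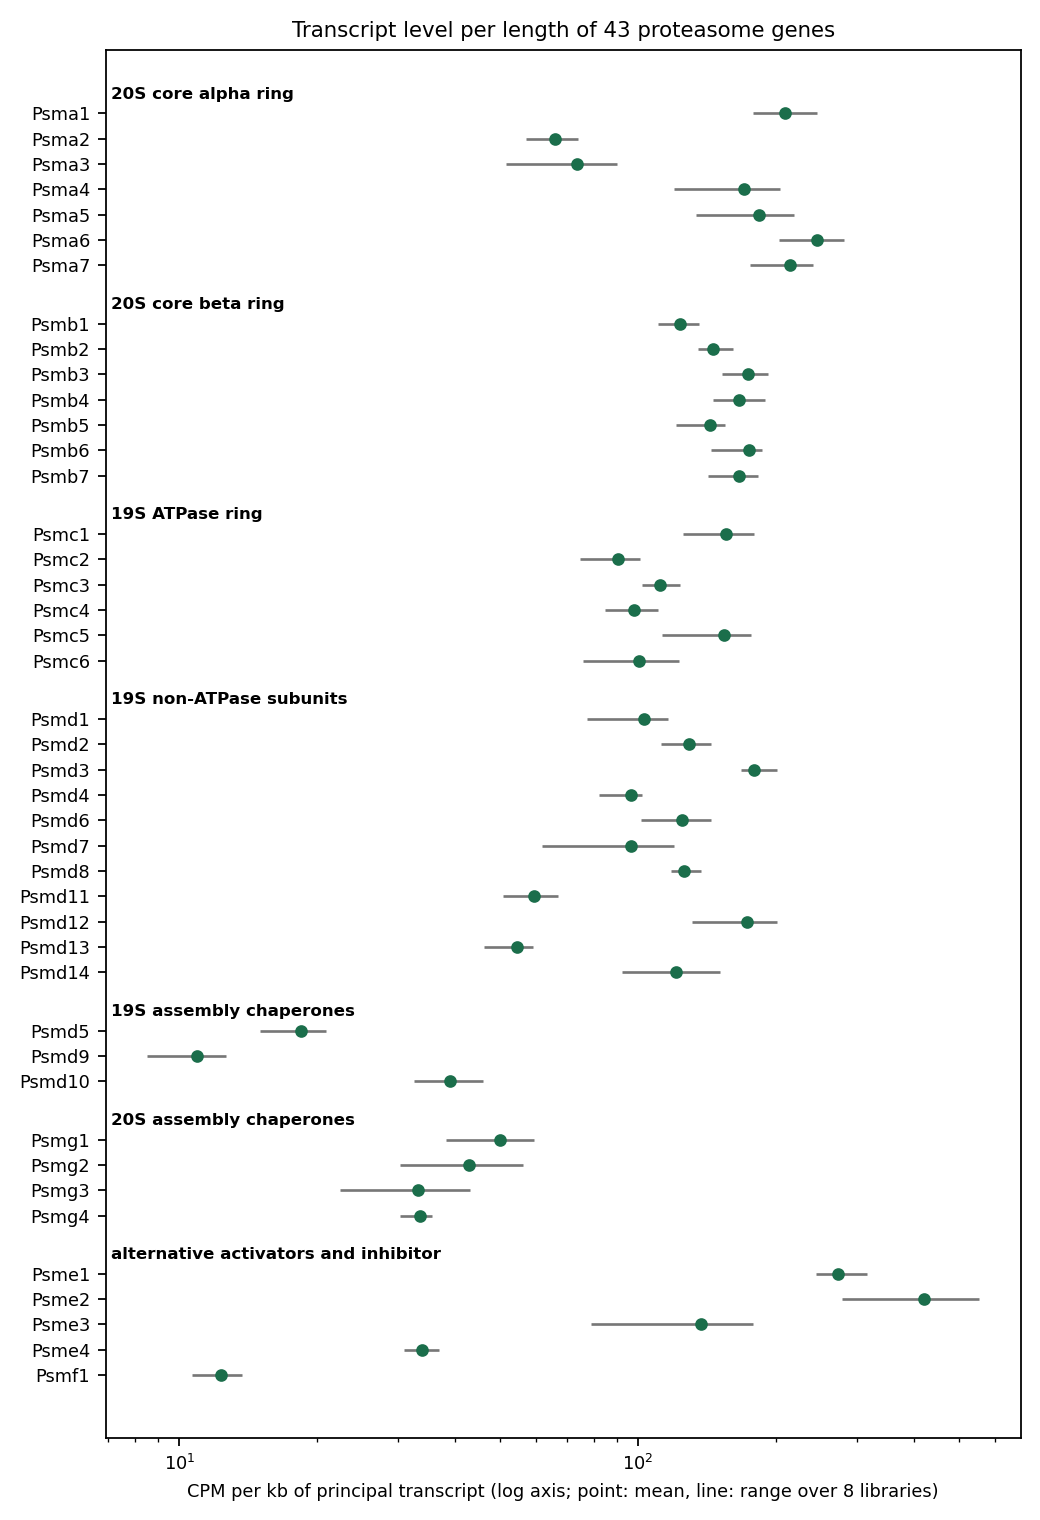
Level of each of the 43 measured members as CPM per kb of principal transcript (log axis), with the mean over 8 libraries as a point and their range as a line, grouped by role. The 7 beta ring genes lie within a ratio of 1.41 by this length (2.75 by the union of exons), and the chaperones lie below the core and the ATPases.

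The first question was which of these genes changed when the B cell receptor was crosslinked in each line. The response was lower expression of a few members and no called rise. In the miR-148a line 6 of 43 members were lower with anti-IgM and 0 higher, where 14.0% of all genes tested were lower and 14.7% higher. In the control line 4 of 43 were lower and 0 higher, where 7.45% of all genes were lower and 9.60% higher. The 4 of the control line were the nuclear PA28 gamma cap gene Psme3, the PA28 beta gene Psme2 and the 20S chaperone genes Psmg3 and Psmg1, and all 4 were among the 6 of the miR-148a line, which added the 19S subunit genes Psmd7 and Psmd1. In this fit, without the run as a block, the share of members lower was thus close to that of all genes in both lines. In bulk RNA a lower level per cell and a smaller share of expressing cells cannot be told apart.

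Over the 43 members the median log2 fold change was -0.12 in the miR-148a line and -0.09 in the control line, against 0.00 and 0.01 over all genes tested. The difference in level was negative in 36 and 35 of the 43. In the miR-148a line 17 members lay lower in both anti-IgM libraries than in both unstimulated libraries and 0 lay higher, where 32.5% and 32.9% of all genes did. In the control line 19 lay lower and 1 higher, where 28.3% and 31.2% of all genes did. The members' summed level was 7853 and 6490.3 CPM in anti-IgM and 8487 and 7861 CPM in unstimulated miR-148a libraries. It was 8148 and 7751 CPM in anti-IgM and 8980.3 and 8471 CPM in unstimulated control libraries. The anti-IgM library of replicate 2 of the miR-148a line was thus the lowest of the 8. Without it the median response in that line was 0.01 and 3 members were called.

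Replicate numbers pair the libraries by run, and a fit with the run as a block called more members. In the miR-148a line it called 16 of 43 lower, where 23.3% of all genes were lower, and in the control line 9 of 43 lower, where 17.2% were. It called 0 members higher in either line, where 2569 of 11291 genes were higher in the miR-148a line and 1989 in the control line. The members it added in both lines were Psma4, an alpha ring gene, and Psmg2, the partner of Psmg1. In the control line it also added Psmd7, Psmd9 and Psme1, and in the miR-148a line Psma3, Psma6, Psmc4, Psmc5, Psmd6, Psmd11, Psmd12 and Psme4.

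**Figure D2:**
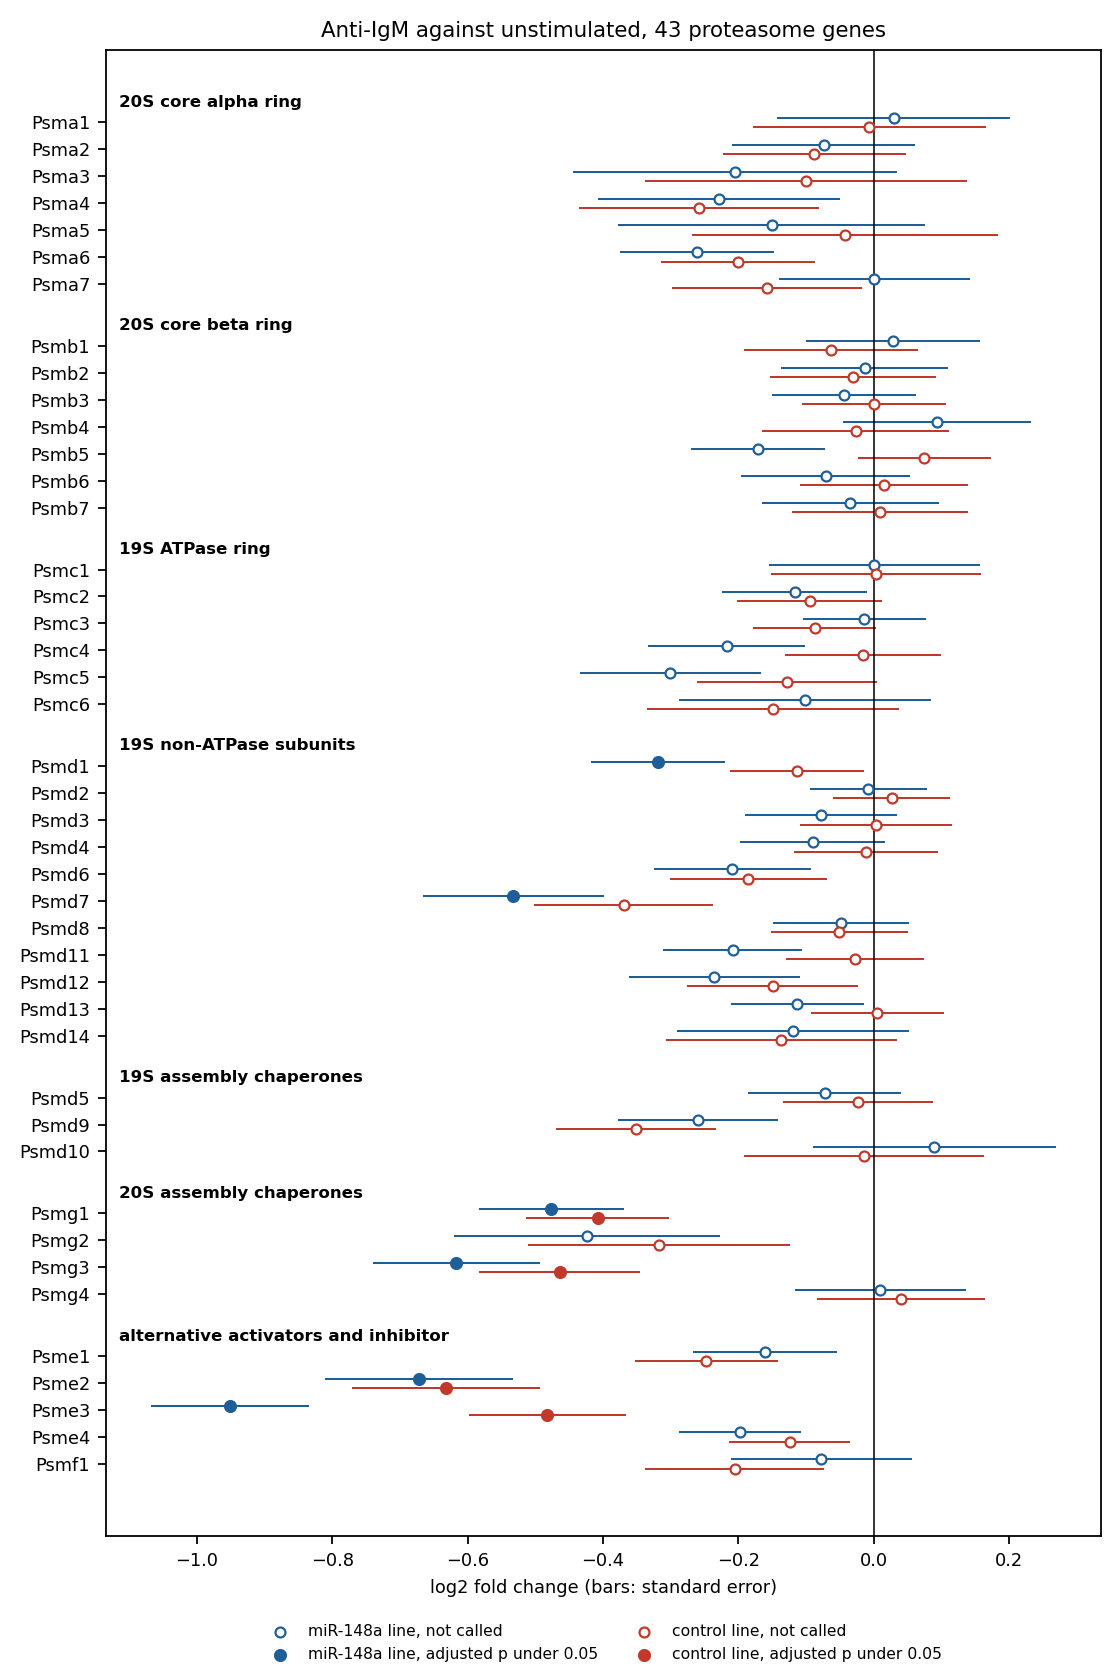
Log2 fold change of anti-IgM against unstimulated (x axis, bars are standard errors) for 43 members by role (y axis), with the miR-148a line in blue and the control line in red, filled where the adjusted p was under 0.05. The filled points are 6 genes of the miR-148a line and 4 of the control line, and all lie left of 0.

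**Figure D3:**
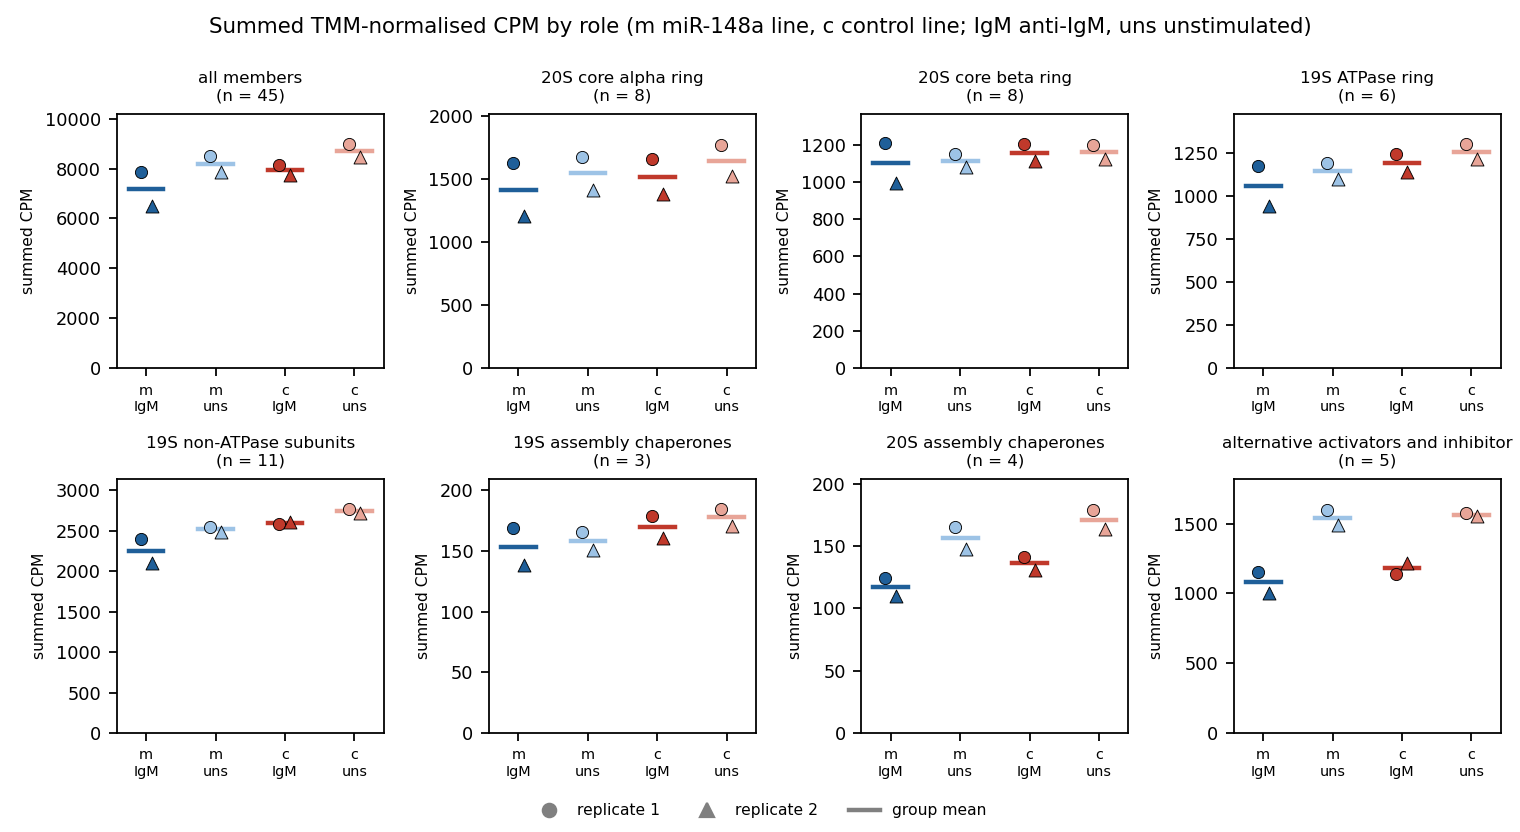
Summed CPM of all members and of each role group (y axis from 0) in each library, with a bar at the mean of the 2 libraries of a group. All members together, the 19S non-ATPase subunits, the 20S assembly chaperones and the activators lie lower in both anti-IgM libraries of each line, while the other 4 role groups overlap in at least 1 line.

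Core subunits came first by role. Each count by role stands against the share of all genes tested, 14.0% lower and 14.7% higher in the miR-148a line. In the control line these shares were 7.45% and 9.60%. Where a library was left out, its group had no replicate and fewer residual degrees of freedom remained. A call could thus be lost with little change in level. The beta ring carries the proteolytic sites, and 0 of its 7 tested genes were called in either line, with a median log2 fold change of -0.03 in the miR-148a line and 0.00 in the control line. Every interval of 95% for a beta ring gene lay between -0.39 and 0.41 in the miR-148a line and between -0.35 and 0.30 in the control line. Psmb5, the chymotrypsin-like subunit, had 123 and 109 CPM in anti-IgM and 129.9 and 131 CPM in unstimulated miR-148a libraries, and 138 and 139 CPM in anti-IgM and 130.4 and 133 CPM in unstimulated control libraries. With anti-IgM it was thus below both unstimulated libraries in the miR-148a line and above both in the control line. The log2 fold change was -0.17 ± 0.10 in the miR-148a line (adjusted p = 0.228) and 0.07 ± 0.10 in the control line (adjusted p = 0.650).

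Psmb6, the caspase-like subunit, had 148 and 115 CPM in anti-IgM and 140.1 and 136 CPM in unstimulated miR-148a libraries, and 148 and 141 CPM in anti-IgM and 142 and 144 CPM in unstimulated control libraries. Psmb7, the trypsin-like subunit, had 204 and 165 CPM in anti-IgM and 199 and 178 CPM in unstimulated miR-148a libraries, and 212 and 185 CPM in anti-IgM and 205 and 189 CPM in unstimulated control libraries. The groups overlapped for both genes in both lines, with log2 fold changes from -0.07 to 0.02. Psmb3, a structural beta subunit, was the member nearest to 0 in the control line (log2 fold change 0.00 ± 0.11).

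The alpha ring gates the entrance of the core. None of its 7 tested genes was called without the block, and the median log2 fold change was -0.15 in the miR-148a line and -0.10 in the control line. Psma6 had 247 and 211 CPM in anti-IgM and 293 and 255 CPM in unstimulated miR-148a libraries, and 244 and 241 CPM in anti-IgM and 292 and 266 CPM in unstimulated control libraries. It lay lower in both anti-IgM libraries of each line, with log2 fold changes of -0.26 ± 0.11 and -0.20 ± 0.11 (adjusted p = 0.118 and 0.259), and with the block it passed in the miR-148a line (adjusted p = 0.0101). Psma4 had log2 fold changes of -0.23 ± 0.18 in the miR-148a line and -0.26 ± 0.18 in the control line, and passed with the block in both (adjusted p = 0.0436 and 0.0403). Without its anti-IgM replicate 2 the miR-148a value was 0.03, and without its anti-IgM replicate 1 it was -0.53 (adjusted p = 0.0360). Of the alpha ring genes that were lower in the run of replicate 2, Psma3 and Psma5 differed by log2 differences of -0.46 and -0.43.

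In the 19S cap, the ATPases Psmc1 to Psmc6 unfold the substrate. None of the 6 was called without the block, and their median log2 fold change was -0.11 in the miR-148a line and -0.09 in the control line. Psmc1 was the member nearest to 0 in the miR-148a line, at 0.00 ± 0.16. Psmc5 was lowest in the miR-148a line at -0.30 ± 0.13 (adjusted p = 0.126, 0.00726 with the block and 0.0237 without its anti-IgM replicate 1), and Psmc4 was -0.22 ± 0.12 there (adjusted p = 0.192, and 0.0471 with the block).

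Among the 11 non-ATPase subunits of the 19S cap, 2 were lower in the miR-148a line (all genes 14.0%). In the control line 0 were lower (all genes 7.45%). Psmd7, the scaffold partner of the deubiquitinase Psmd14, had 129.8 and 97.8 CPM in anti-IgM and 168 and 160.3 CPM in unstimulated miR-148a libraries, and 139.8 and 150.0 CPM in anti-IgM and 185 and 189 CPM in unstimulated control libraries. Both anti-IgM libraries were below both unstimulated ones in each line. The response amounted to a log2 fold change of -0.53 ± 0.13 in the miR-148a line (adjusted p = 0.0166) and -0.37 ± 0.13 in the control line (adjusted p = 0.0883, and 0.0114 with the block). The control response also passed in DESeq2, without a filter and when 1 anti-IgM library of the miR-148a line was left out (adjusted p = 0.0273 to 0.0481). In the miR-148a line the call was lost without its anti-IgM replicate 2, where the log2 fold change was -0.34 (adjusted p = 0.0902), and without either unstimulated library of that line (-0.50 and -0.57, adjusted p = 0.0982 and 0.0557).

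Psmd1, the large base scaffold, had 281 and 241 CPM in anti-IgM and 333 and 318 CPM in unstimulated miR-148a libraries, and 331 and 338 CPM in anti-IgM and 362 and 362 CPM in unstimulated control libraries. The groups did not overlap in either line. On the log2 scale the change was -0.32 ± 0.10 in the miR-148a line (adjusted p = 0.0398) and -0.11 ± 0.10 in the control line (adjusted p = 0.473). The first call held in 5 of 15 other settings, with adjusted p from 0.00320 to 0.207, and among the left-out libraries it held only without anti-IgM miR-148a replicate 1. Without the others it ran from -0.36 to -0.21 on the log2 scale. It was also lost with upper-quartile factors (-0.26, adjusted p = 0.0617), with library totals alone (-0.25, adjusted p = 0.0788) and in the fit of the miR-148a libraries alone (-0.32). Psmd1 shares 301 exon bases with the annotated same-strand gene Gm21972, so its reads may have been split. Psmd2, the other base scaffold, and Psmd3, a lid subunit, were near 0 in both lines, at -0.01 ± 0.09 and -0.08 ± 0.11 in the miR-148a line and 0.03 ± 0.09 and 0.00 ± 0.11 in the control line. The remaining lid and base genes lay between -0.24 (Psmd12) and -0.05 (Psmd8) in the miR-148a line and between -0.19 (Psmd6) and 0.01 (Psmd13) in the control line. With the block Psmd6, Psmd11 and Psmd12 were added in the miR-148a line, with adjusted p = 0.0310, 0.0429 and 0.0176, and Psmd12 also passed without anti-IgM miR-148a replicate 1 (adjusted p = 0.0326).

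Of the 19S assembly chaperones, Psmd5 and Psmd10 (gankyrin) were within 0.09 of 0 on the log2 scale in both lines. Psmd9 had 28.5 and 25.3 CPM in anti-IgM and 32.8 and 31.2 CPM in unstimulated miR-148a libraries, and 22.1 and 25.9 CPM in anti-IgM and 31.0 and 30.8 CPM in unstimulated control libraries. Both anti-IgM libraries lay below both unstimulated ones in each line, yet neither response passed, at -0.26 ± 0.12 and -0.35 ± 0.12 (adjusted p = 0.131 and 0.0728). With the block the control response passed (adjusted p = 0.0312).

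The 20S assembly chaperones build the alpha ring as 2 pairs, Psmg1 with Psmg2 and Psmg3 with Psmg4. Of these 4 genes 2 were lower in each line, where 14.0% of all genes were in the miR-148a line and 7.45% in the control line. The set had a median log2 fold change of -0.45 in the miR-148a line and -0.36 in the control line. Psmg3 had 19.7 and 21.3 CPM in anti-IgM and 32.1 and 31.1 CPM in unstimulated miR-148a libraries, and 24.3 and 29.7 CPM in anti-IgM and 38.0 and 37.3 CPM in unstimulated control libraries. The anti-IgM libraries were below the unstimulated ones in both lines. Its log2 fold change was -0.62 ± 0.12 in the miR-148a line (adjusted p = 0.00627) and -0.46 ± 0.12 in the control line (adjusted p = 0.0302). The miR-148a call held in all 15 other settings and the control call in 8 of 15. The control call was lost in DESeq2 (-0.48, adjusted p = 0.0697), in the fit of the control libraries alone (-0.46, adjusted p = 0.0672), without its anti-IgM replicate 1 (-0.34, adjusted p = 0.146), without either of its unstimulated libraries (-0.45 and -0.48, adjusted p = 0.119 and 0.107) and without either unstimulated miR-148a library (both -0.47, adjusted p = 0.0546 and 0.0552). Psmg3 shares 237 exon bases with the same-strand gene Gm26938.

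Psmg1 had 44.1 and 39.8 CPM in anti-IgM and 60.8 and 55.4 CPM in unstimulated miR-148a libraries, and 48.7 and 45.0 CPM in anti-IgM and 62.1 and 61.9 CPM in unstimulated control libraries. Again the groups did not overlap. The log2 fold change was -0.48 ± 0.11 in the miR-148a line (adjusted p = 0.0106) and -0.41 ± 0.11 in the control line (adjusted p = 0.0317). The control call was lost in DESeq2 (-0.42, adjusted p = 0.0502) and with library totals alone (-0.33, adjusted p = 0.0579), without any 1 of the 4 control libraries (-0.46 to -0.35, adjusted p = 0.0848 to 0.151) and without either unstimulated miR-148a library (both -0.41, adjusted p = 0.0524 and 0.0515). The miR-148a call was lost without its anti-IgM replicate 2 (-0.40, adjusted p = 0.0825) and without its unstimulated replicate 1 (-0.41, adjusted p = 0.0919).

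Psmg2, the partner of Psmg1, had 41.3 and 32.0 CPM in anti-IgM and 54.6 and 42.8 CPM in unstimulated miR-148a libraries, and 48.4 and 37.5 CPM in anti-IgM and 59.5 and 46.2 CPM in unstimulated control libraries. Each replicate 1 library was above the replicate 2 library of its group, and the difference within a run was of like size, -0.40 and -0.42 in the miR-148a line and -0.30 and -0.30 in the control line. The response did not pass without the block (adjusted p = 0.138 and 0.294) and passed with it (adjusted p = 0.00175 and 0.0153). Psmg4, the partner of Psmg3, ran from 16.8 to 19.8 CPM over the 8 libraries, and the groups overlapped in both lines. The response was 0.01 ± 0.13 on the log2 scale in the miR-148a line and 0.04 ± 0.12 in the control line.

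The alternative cap genes Psme3 and Psme2 had the lowest responses in both lines. Over the activators and inhibitor the median log2 fold change was -0.20 in the miR-148a line and -0.25 in the control line. Psme3 encodes PA28 gamma, a nuclear cap that promotes degradation of proteins without ubiquitin. It had 242 and 210.1 CPM in anti-IgM and 451 and 422 CPM in unstimulated miR-148a libraries, and 304 and 365 CPM in anti-IgM and 459.5 and 475 CPM in unstimulated control libraries. All 4 anti-IgM libraries lay below all 4 unstimulated ones. On the log2 scale the change was -0.95 ± 0.12 in the miR-148a line, a level 0.517 times the unstimulated one (adjusted p = 0.000906), and -0.48 ± 0.12 in the control line, 0.716 times (adjusted p = 0.0234). The miR-148a call held in all 15 other settings. The control call was lost without its anti-IgM replicate 1 (-0.36, adjusted p = 0.139) and without either of its unstimulated libraries (-0.51 and -0.47, adjusted p = 0.0769 and 0.108).

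Psme2, the PA28 beta subunit, had 365 and 268 CPM in anti-IgM and 533 and 473 CPM in unstimulated miR-148a libraries, and 315 and 312 CPM in anti-IgM and 488 and 484 CPM in unstimulated control libraries. Here too all 4 anti-IgM libraries lay below all 4 unstimulated ones. Its log2 fold change was -0.67 ± 0.14 in the miR-148a line (adjusted p = 0.00729) and -0.63 ± 0.14 in the control line (adjusted p = 0.0172). The control call was lost without any 1 of the 4 control libraries, with log2 fold changes from -0.65 to -0.63 (adjusted p = 0.0675 to 0.0848). In the miR-148a line it was lost without its unstimulated replicate 1 (-0.59, adjusted p = 0.0599).

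Psme1 encodes PA28 alpha, the partner of PA28 beta in the same ring. It had 297 and 276 CPM in anti-IgM and 339 and 300.2 CPM in unstimulated miR-148a libraries, and 272 and 284 CPM in anti-IgM and 351 and 309 CPM in unstimulated control libraries. The log2 fold change was -0.16 ± 0.11 in the miR-148a line (adjusted p = 0.292) and -0.25 ± 0.11 in the control line (adjusted p = 0.145, and 0.0248 with the block). The ratio of Psme2 to Psme1 levels was 1.23 and 0.970 in anti-IgM and 1.57 and 1.58 in unstimulated miR-148a libraries, and 1.16 and 1.10 in anti-IgM and 1.39 and 1.57 in unstimulated control libraries. These ratios compare CPM of the same gene pair across libraries, and they were lower in every anti-IgM library than in any unstimulated one.

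Psme4, the PA200 cap, had 208 and 201 CPM in anti-IgM and 229.7 and 239 CPM in unstimulated miR-148a libraries, and 209.9 and 209.8 CPM in anti-IgM and 221 and 237 CPM in unstimulated control libraries. The response was -0.20 ± 0.09 on the log2 scale in the miR-148a line (adjusted p = 0.132, and 0.0349 with the block) and -0.12 ± 0.09 in the control line (adjusted p = 0.380). The inhibitor Psmf1 was at -0.08 ± 0.13 and -0.21 ± 0.13 and passed in neither line.

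**Figure D4:**
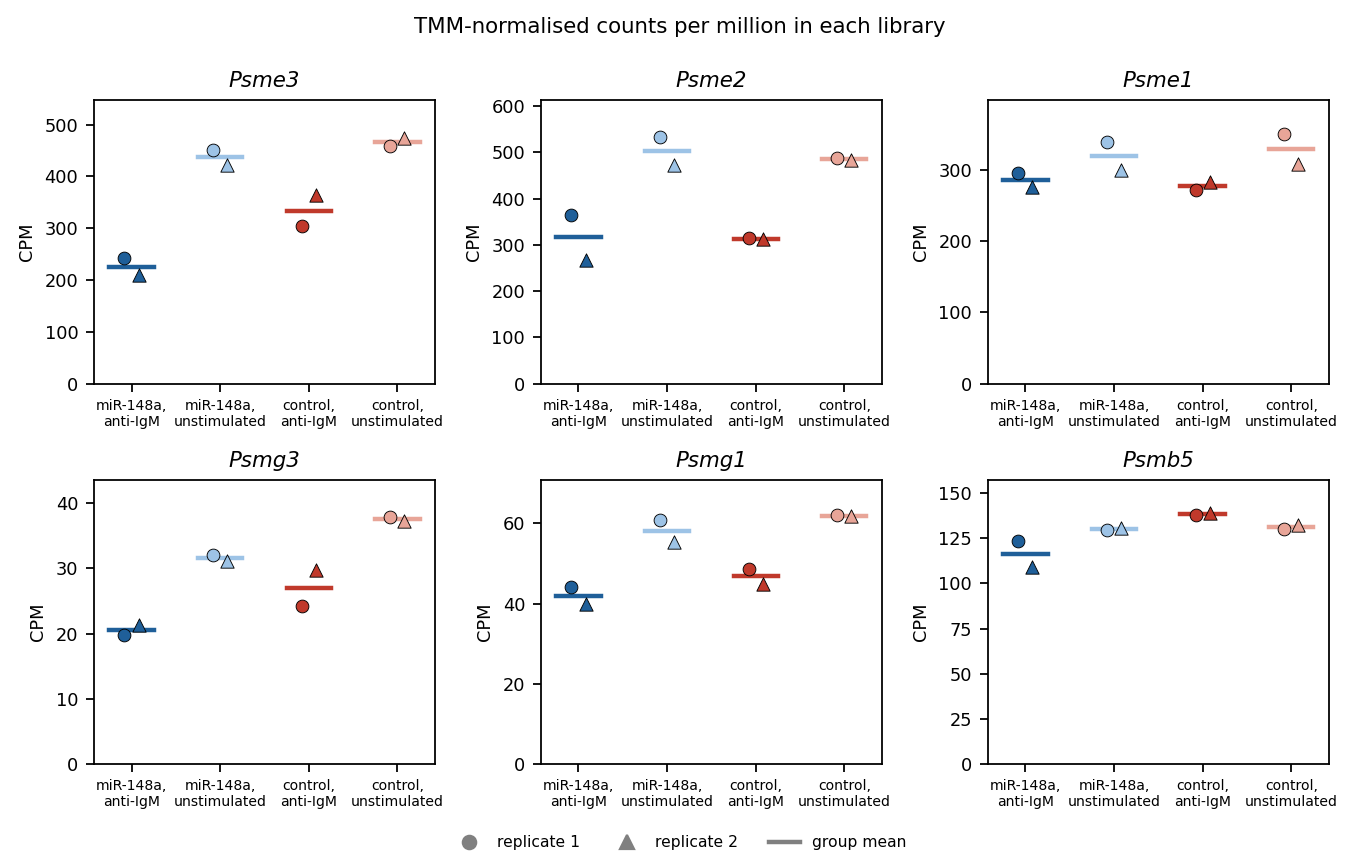
TMM-normalised CPM (y axis from 0) of 6 members in each library, with a bar at the group mean, circles for replicate 1 and triangles for replicate 2. Psme3, Psme2, Psmg3 and Psmg1 lie lower in both anti-IgM libraries of each line, and Psme1 and Psmb5 differ less.

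The second question was whether the lines differed. With anti-IgM, 1 of 43 members was lower in the miR-148a line and 0 higher, where 1.16% and 1.36% of all genes tested were. This was Psme3, with 226 ± 22.5 CPM in the miR-148a line and 334 ± 43.2 CPM in the control line (SD, n = 2 each). On the log2 scale the change was -0.57 ± 0.12 (adjusted p = 0.0435), -0.33 within the run of replicate 1 and -0.79 within that of replicate 2. The call held in 7 of 15 other settings, with adjusted p from 0.000948 to 0.253. It was lost when the 4 anti-IgM libraries were fitted alone (-0.56, adjusted p = 0.142) and without any 1 library other than anti-IgM miR-148a replicate 1 (-0.69 to -0.43, adjusted p = 0.0656 to 0.253). Without stimulation Psme3 differed by -0.10 ± 0.11 (adjusted p = 0.844).

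With the block 9 members were lower in the anti-IgM miR-148a line than in the anti-IgM control line, where 8.24% of all genes were. Besides Psme3 they were Psmd1, Psmd2, Psmd7, Psmd13, Psmc5, Psmd5, Psmb5 and Psmg3, with block log2 fold changes from -0.41 (Psmg3, adjusted p = 0.0371) to -0.26 (Psmd13, adjusted p = 0.0430). The median over 43 members was -0.14, against -0.01 over all genes, and -0.01 without anti-IgM miR-148a replicate 2.

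Without stimulation 0 of 43 members were called in either direction by edgeR, where 0.239% of all genes were lower and 0.248% higher. At an unadjusted p under 0.05 there were 2 members, and 1286 of all genes, and DESeq2 called 0 members. The member median was -0.10, against 0.01 over all genes. With the block 1 member was lower, where 3.37% of all genes were. It was Psmd2, which had 355 and 333 CPM in anti-IgM and 339 and 352 CPM in unstimulated miR-148a libraries, and 424 and 424 CPM in anti-IgM and 427 and 406 CPM in unstimulated control libraries. All 4 miR-148a libraries lay below all 4 control libraries. Its line difference was -0.27 ± 0.09 without stimulation (adjusted p = 0.251, and 0.0281 with the block) and -0.30 ± 0.09 with anti-IgM (adjusted p = 0.115, and 0.00939 with the block).

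**Figure D5:**
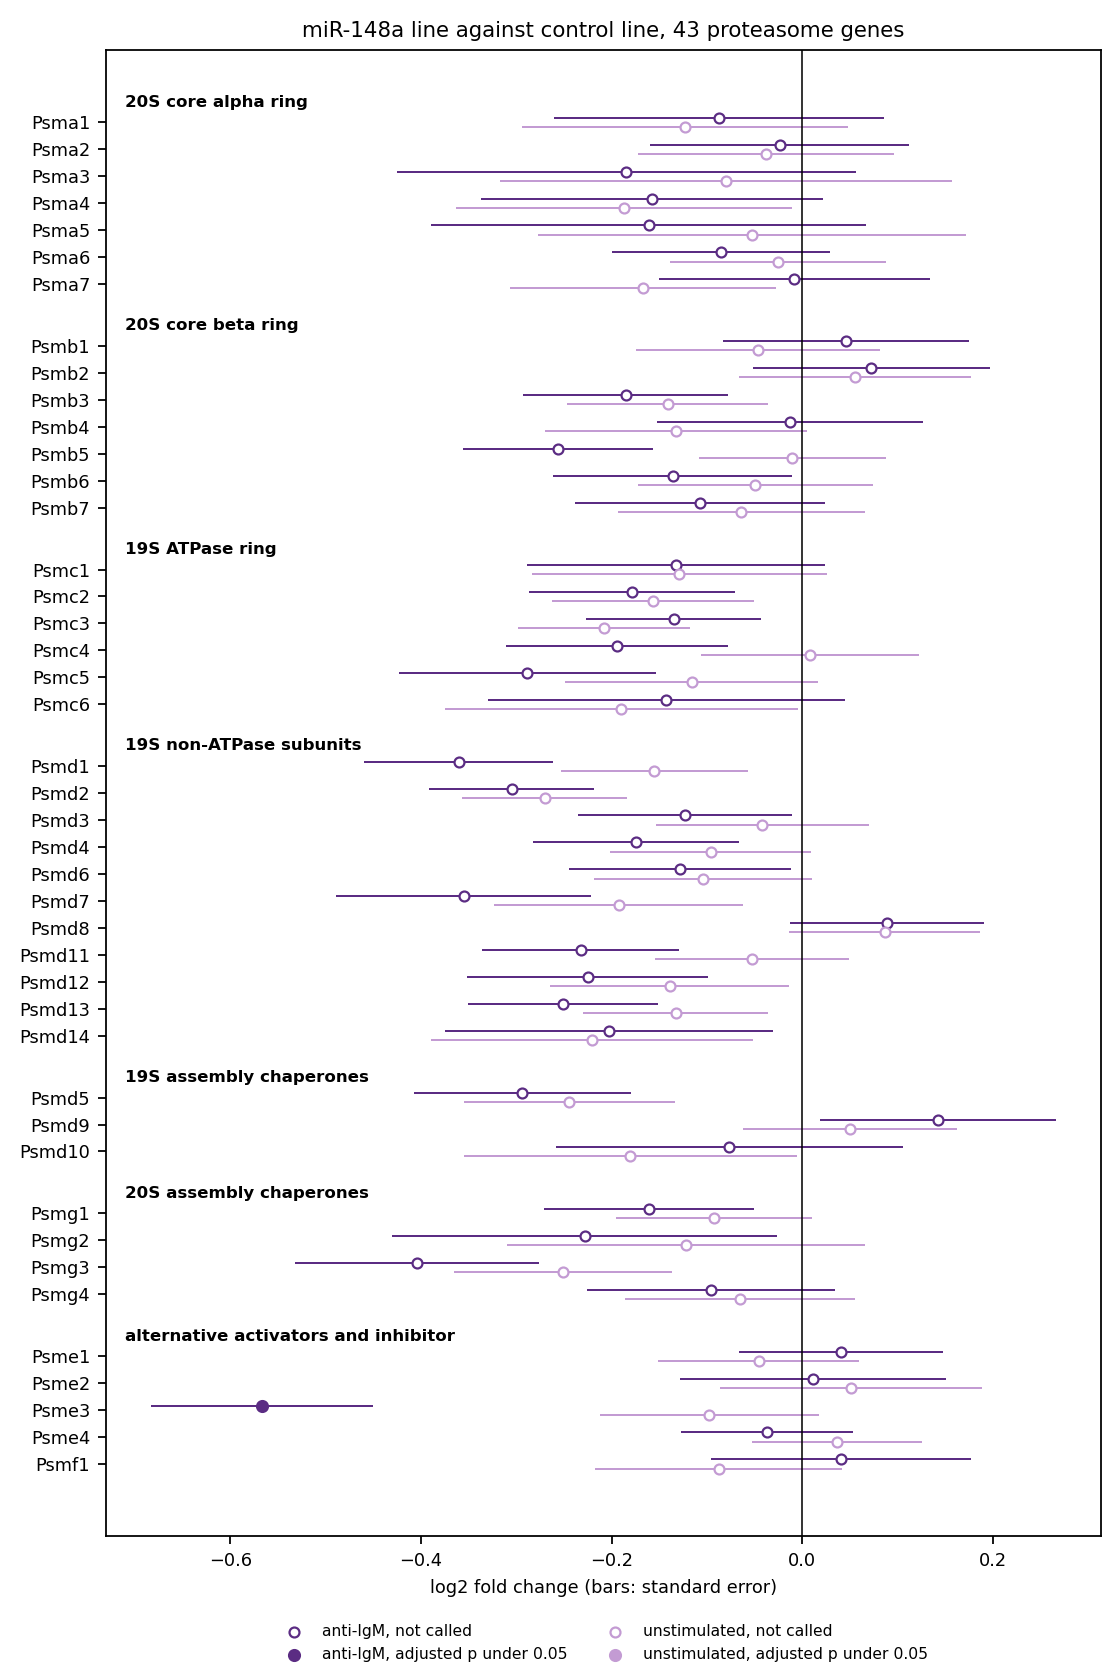
Log2 fold change of miR-148a over control cells (x axis, bars are standard errors) for 43 members by role (y axis), with anti-IgM in dark and unstimulated in light purple, filled where the adjusted p was under 0.05. The only filled point is Psme3 with anti-IgM, at -0.57.

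The difference between the lines in the anti-IgM response was tested as an interaction. It was called in 0 members and 0% of all genes, and with the block in 0 members and 0.0974% of all genes, while 1 member and 484 of all genes had an unadjusted p under 0.05. DESeq2 also called 0 members. The 1 member was Psme3, at -0.47 ± 0.16 (adjusted p = 0.9996, and 0.182 with the block). The Psme3 response in the miR-148a line was therefore not shown to differ from that in the control line. The intervals of 95% for the interaction ran from -0.87 (Psma3) to 0.67 (Psmd10) over the members.

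Genes that work with the members were read as lists chosen with earlier results of these data known. Each count stands against the share of all genes tested, which in the anti-IgM response was 14.0% lower and 14.7% higher in the miR-148a line and 7.45% lower and 9.60% higher in the control line. The immunoproteasome subunits, which replace Psmb5, Psmb6 and Psmb7 in the core, did not follow the lower members. In the miR-148a line 2 of 3 were higher with anti-IgM: Psmb8 by 0.38 ± 0.11 (adjusted p = 0.0312) and Psmb9 by 0.37 ± 0.10 (adjusted p = 0.0210). In the control line 0 of 3 were called, with Psmb8 at 0.13 ± 0.11 and Psmb9 at 0.15 ± 0.10, and the interaction was called for neither gene. Psmb8 had 239 and 257 CPM in anti-IgM and 172 and 208 CPM in unstimulated miR-148a libraries. In control libraries it had 277 and 296 CPM in anti-IgM and 258 and 265 CPM unstimulated. Between the unstimulated lines all 3 differences were negative, and edgeR called 0 of them. With the block 1 was lower in the miR-148a line, where 3.37% of all genes were. The Psmb8 call was lost in the fit of the miR-148a libraries alone (0.39, adjusted p = 0.0637), without anti-IgM miR-148a replicate 2 (0.33, adjusted p = 0.146), and without replicate 1 of the unstimulated miR-148a cells (0.25, adjusted p = 0.253) or control cells (0.38, adjusted p = 0.0527). The Psmb9 call was lost in DESeq2 (0.37, adjusted p = 0.0885) and without any 1 of the 4 miR-148a libraries (0.34 to 0.40, adjusted p = 0.0622 to 0.151). The ratio of Psmb8 to Psmb5 CPM was 1.94 and 2.36 in anti-IgM and 1.33 and 1.59 in unstimulated miR-148a libraries, and 2.01 and 2.13 in anti-IgM and 1.98 and 2.00 in unstimulated control libraries. These ratios serve only to compare libraries, because they are not per transcript length. Per kb of principal transcript the means over the 8 libraries were 152 CPM for Psmb8 and 144 CPM for Psmb5.

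Of 11 tested associated factors, 3 were lower in the miR-148a line (all genes 14.0%) and 1 in the control line (all genes 7.45%), and 0 were higher. The ubiquitin ligase Ube3c was called in both (-0.44 ± 0.10 and -0.39 ± 0.10), and the deubiquitinase Usp14 in the miR-148a line (-0.61 ± 0.18). The control call of Ube3c was lost with upper-quartile factors or library totals alone (-0.33 and -0.32, adjusted p = 0.0508 and 0.0580), and without any 1 library of the control or unstimulated miR-148a cells (-0.44 to -0.35, adjusted p = 0.0506 to 0.158). Without anti-IgM miR-148a replicate 2 or unstimulated miR-148a replicate 1 the miR-148a calls of Ube3c (-0.42 and -0.37, adjusted p = 0.0668 and 0.106) and Usp14 (-0.39 and -0.47, adjusted p = 0.183 and 0.188) were lost. The core maturation factor Pomp was at -0.17 ± 0.11 and -0.04 ± 0.11 and was not called. Of 15 ubiquitin and shuttle genes, 4 were lower in the miR-148a line (all genes 14.0%) and 1 in the control line (all genes 7.45%), and 0 were higher. The single control calls of these lists are near the share of all genes. The shuttle factor Rad23b was called in both (-0.51 ± 0.09 and -0.46 ± 0.09), and Ubqln4 in the miR-148a line (-0.60 ± 0.12). The control call of Rad23b was lost without anti-IgM replicate 1 (-0.42, adjusted p = 0.0723) or unstimulated replicate 2 (-0.44, adjusted p = 0.0671) of that line, and the Ubqln4 call without unstimulated miR-148a replicate 1 (-0.55, adjusted p = 0.0521).

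The COP9 signalosome and eIF3 are complexes built on the plan of the 19S lid. Of 17 of their genes, 6 were lower in the miR-148a line (all genes 14.0%) and 1 in the control line, which is below the share of all genes (7.45%), and 0 were higher. Cops8 was at -0.55 ± 0.12 in the miR-148a line, and Eif3a was called in both lines (-0.53 ± 0.11 and -0.50 ± 0.11). Without unstimulated miR-148a replicate 1 the miR-148a calls of Cops8 (-0.48, adjusted p = 0.0759) and Eif3a (-0.47, adjusted p = 0.0690) were lost, as was that of Cops8 without anti-IgM miR-148a replicate 2 (-0.41, adjusted p = 0.0763). The control call of Eif3a was lost without any 1 of the 4 control libraries (-0.51 to -0.50, adjusted p = 0.0697 to 0.0924). Of 12 transcription factors and their processing genes, 2 were higher in each line and 0 lower, near the 14.7% of all genes higher in the miR-148a line and beside 9.60% in the control line. They were Stat3 (0.94 ± 0.12 and 0.89 ± 0.12) and Foxm1 (0.80 ± 0.13 and 0.57 ± 0.13), and the control call of Foxm1 was lost without any 1 of the 4 control libraries (0.48 to 0.65, adjusted p = 0.0594 to 0.109). Nfe2l1, the factor that raises proteasome genes when proteasome activity is short, was at -0.37 ± 0.13 (adjusted p = 0.0558) and -0.32 ± 0.13 (adjusted p = 0.120), and passed with the block in both lines (adjusted p = 0.00139 and 0.00517). Nfe2l1 of the miR-148a line also passed in DESeq2, without a filter and without either anti-IgM control library (adjusted p = 0.0335 to 0.0426).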

How the data were processed

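PolyA-selected RNA of 8 libraries was sequenced after Trizol extraction and a directional library kit, per the labels' protocols. The authors deposited raw estimated counts for each gene symbol in a single table. The submitters' processing notes name the builds mm10 and GRCm38 and, with no role, edgeR, Bowtie2, TopHat2 2.0.13, cutadapt, Partek 6.15.0730 and CASAVA 1.8. Neither the annotation nor the strandedness used for counting is stated there, so reads of overlapping or antisense genes may not have been told apart. Psme2 has a near copy, Psme2b.

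Of 24081 rows, 27 with names turned into dates (0.213% to 0.235% of counts) name no gene and were left out. Between 9.17% and 12.4% of values were not whole, so the estimated counts were rounded for testing. Groups came from the labels, 2 libraries in each of 4. Genes were tested by quasi-likelihood F tests in edgeR (edgeR 4.0.16, R 4.3.3, 4 group means, filterByExpr, TMM factors, 4 residual degrees of freedom) with Benjamini-Hochberg adjustment over 11291 genes and a threshold of 0.05. Values after ± are standard errors of log2 fold changes unless SD is named. Other settings were the scaling, the filter, DESeq2 1.42.0, the replicate block, leaving out each library and fitting the compared libraries alone. Leaving out a library left its group without a replicate and lowered the residual degrees of freedom. A call lost there may thus come from less power and not from a change in the log2 fold change. The script was tested on simulated counts.

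Replicates differed by more than sampling noise, the chi-square averaged over genes being 9.40 to 13.6. Replicate numbers follow the name prefix taken as the run, and same-numbered libraries deviated together (Pearson's r 0.495 to 0.569 across genes in all 6 pairs of groups), so the numbers pair the libraries by run. The block lowered edgeR's biological coefficient of variation to 5.98%, against 11.1% without it, and left 3 residual degrees of freedom. The members, gene lists and motifs were chosen with earlier results of these data known. The named members are, per comparison, the called ones with the largest change, those nearest 0, those at or below the filter and the 3 catalytic subunits, with up to 4 called genes of each other list. Zero floors and intervals cover counting error or library spread only.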

Additional observations from a re-analysis of the deposited data

Results flagged for a closer look

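Psmb5 and Psme4 were picked from the 43 tested members for opposite signs in both runs. Psmb5, the chymotrypsin-like subunit, had anti-IgM differences of opposite sign in the lines, and neither response was called. Its log2 difference within the run of replicate 1 and that of replicate 2 was -0.08 and -0.27 in the miR-148a line and 0.08 and 0.07 in the control line. The difference between the lines in this response was -0.25 ± 0.14 (edgeR, adjusted p = 0.9996, and 0.405 with the replicate block), so it did not pass the test.

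Psme4, the PA200 cap, had line differences of opposite sign in the conditions. The miR-148a line minus the control line was -0.01 and -0.06 within the runs with anti-IgM and 0.06 and 0.02 without stimulation. The difference of these differences was -0.073 ± 0.13 (edgeR, adjusted p = 0.9996) and did not pass.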

How the results depend on the processing

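No called value changed its direction in a setting run. With the replicate block the members called rose to 16 in the miR-148a response against 6, to 9 in the control response against 4, to 9 in the anti-IgM line difference against 1 and to 1 in the unstimulated line difference against 0. All of these were lower. The share of all genes lower also rose with the block, to 23.3% against 14.0% and to 17.2% against 7.45% in the 2 responses. In the line differences it rose to 8.24% against 1.16% with anti-IgM and to 3.37% against 0.239% without stimulation. The anti-IgM line difference had 0 calls when fitted to its own 4 libraries. Leaving out each library in turn gave 2 to 9 calls in the miR-148a response, 0 to 5 in the control response, 0 to 1 in the anti-IgM line difference and 0 in the unstimulated one. The control response had 0 calls without replicate 1 of its anti-IgM group or without either unstimulated library, while the miR-148a response had 2 without replicate 1 of its unstimulated group. The interaction had 0 calls in each setting run. Of the settings of 95 log2 fold changes of single genes, 1231 kept direction and side of the threshold, 81 lost a call, 36 gained one and 74 changed sign. The median response of the members in the miR-148a line changed sign without anti-IgM miR-148a replicate 2, to 0.01 against -0.12 with it. Scaling by library totals, chosen after seeing the data, moved the median of all genes to 0.07 and that of the members to -0.05 in the miR-148a response, and to 0.09 and -0.01 in the control response. The sum over all members moved by less than 1 SD under each scaling, while 7 of 84 role sums, added after seeing the data, moved by more, all of the 19S non-ATPase subunits or the activators. With 2 libraries a group and totals as low as 5810227 counts, small differences may not have been detectable.

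The 74 sign changes fell on 24 log2 fold changes that passed the test neither as reported nor in the setting that turned the sign, the lowest adjusted p under a setting that turned the sign being 0.227. With upper-quartile factors these values were Psmb7 0.019, Psmd2 0.046 and Psmd8 0.0054 in the miR-148a response and Psmb3 0.062, Psmd5 0.039, Psmd10 0.048 and Pomp 0.024 in the control response. With library totals alone these values were Psmb7 0.033, Psmd2 0.060 and Psmd8 0.019 in the miR-148a response and Psmb3 0.073, Psmd5 0.050, Psmd10 0.060 and Pomp 0.036 in the control response. With RLE factors these values were Psmb7 -0.0025, Psmd3 -0.0090 and Psmd13 -0.0068 in the control response. In DESeq2 these values were Psmc1 -0.0029 in the miR-148a response and Psmb6 -6.05e-05, Psmb7 -0.0065, Psmd3 -0.012 and Psmd13 -0.011 in the control response. Without a filter these values were Psmc1 -0.016 and Psmg4 -0.0047 in the miR-148a response, Psmb6 -0.043, Psmb7 -0.050, Psmd2 -0.032, Psmd3 -0.054, Psmd13 -0.054 and Psmg4 -0.020 in the control response and Psme4 -0.00042 in the unstimulated line difference. With the replicate block these values were Psmc1 -0.014 in the miR-148a response and Psmb3 0.0043 in the control response. In the fit of the compared libraries alone these values were Psmb3 0.0032 in the control response. Leaving out each library in turn moved Psma4 from -0.53 to 0.026, Psmb6 from -0.26 to 0.10, Psmb7 from -0.20 to 0.11, Psmc1 from -0.25 to 0.21, Psmd2 from -0.059 to 0.035, Psmd5 from -0.19 to 0.042, Psmd8 from -0.16 to 0.055, Psmd10 from -0.13 to 0.29, Psmf1 from -0.21 to 0.053 and Psmg4 from -0.10 to 0.13 in the miR-148a response. Leaving out each library in turn moved Psmb3 from -0.077 to 0.066, Psmb6 from -0.020 to 0.049, Psmb7 from -0.091 to 0.10, Psmd2 from -0.017 to 0.061, Psmd3 from -0.14 to 0.13, Psmd5 from -0.078 to 0.029, Psmd10 from -0.21 to 0.17, Psmd13 from -0.024 to 0.025, Psmg4 from -0.015 to 0.092 and Pomp from -0.12 to 0.037 in the control response. Leaving out each library in turn moved Psmd8 from -0.025 to 0.19 and Psmf1 from -0.087 to 0.16 in the anti-IgM line difference. Leaving out each library in turn moved Psme4 from -0.012 to 0.073 and Psmf1 from -0.22 to 0.036 in the unstimulated line difference.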
